A study of Mus musculus with 18 samples.

Results

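The transcripts described here come from 39 mouse genes of DNA replication and S phase, followed through 18 libraries of germline precursors grown in vitro. They were chosen as a list of gene names, and all 39 are among the 34850 genes with a value in each library. The 18 libraries form 9 groups of 2. Embryonic stem cells (ESCs), grown with LIF and inhibitors of MEK and GSK3, gave epiblast-like cells (EpiLCs) at day 2, and these gave primordial germ cell-like cells (PGCLCs) at day 4 with BMP4, LIF, SCF and EGF. All 3 groups are labelled C57BL/6 with Blimp1-mVenus and Stella-ECFP reporters. ESCs and EpiLCs were unsorted, and day 4 PGCLCs were sorted for mVenus. In 4 further groups (d4c7) PGCLCs with the same reporters, labelled B6D2F1, were cultured for 7 days on m220-5 feeder cells, whose division was blocked with mitomycin C, and sorted again for mVenus. Their labels are FR10, CsA, FGF10 and FGF2. In 2 groups (E9.5c5), germ cells of E9.5 embryos, labelled B6D2F1 x C57BL/6 carrying Stella-EGFP, spent 5 days in culture with label FR10 or CsA before a sort for EGFP. FR10 stands for forskolin and rolipram, which raise cAMP and were in the culture medium with SCF and serum. CsA is cyclosporin A, an inhibitor of calcineurin. The doses of CsA and FGF, the meaning of the name FGF10 beyond the label, and whether forskolin and rolipram stayed in those cultures were not stated in what was read here.

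Replication begins at origins that are licensed in G1, when the origin recognition complex, Cdc6 and Cdt1 load the ring-shaped MCM helicase, made of the subunits Mcm2 to Mcm7, onto DNA. At the start of S phase, Cdc45 and the GINS complex join MCM to form the active helicase, and cyclin E with its kinase helps to fire origins. Primase and DNA polymerase alpha then lay primers, replication factor C loads the sliding clamp PCNA, RPA coats single-stranded DNA, and Fen1 and Lig1 join the lagging-strand fragments. Ribonucleotide reductase, thymidylate synthase, thymidine kinase and dUTPase keep the nucleotide pools in order. Many of these genes are known targets of E2F transcription factors, and mouse germ cells are known to proliferate as they migrate to the gonad.

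Promoters of 4 MCM genes are shown first, because 3 of them rose together at day 4 and Mcm2 did not pass the test. They were thus chosen by their values in these data. Mcm4 also rose at day 4 but had no promoter window to search. Promoter windows of RefSeq (GRCm38.p6), from 250 bases before to 50 bases after each start, matched 31 of the 39 genes, in 35 windows. Both strands were searched for E2F-type letters (TTTCCCGC, TTTGGCGC, TTTCGCGC or TTTGCCGC) and for CCAAT, the NF-Y box. E2F-type letters were found in 11 of the 31 genes (35.5%), against 2.6% of all 27025 genes with a window. The 11 were Mcm3, Mcm5, Mcm6, Mcm7, Gins3, Cdc6, Cdt1, Orc1, Pola1, Rfc3 and Lig1. CCAAT was found in 21 of 31 (67.7%), against 41.1% of all genes. The lines below give the 170 bases before the start of Mcm6 (chr1:128359706-128359875, minus strand), Mcm5 (chr8:75109339-75109508, plus strand), Mcm3 (chr1:20820313-20820482, minus strand) and Mcm2 (chr6:88898781-88898950, minus strand), each 5′ to 3′ on the gene's strand. Capitals mark E2F-type letters and CCAAT on either strand, and overlapping matches run together.
Mcm6: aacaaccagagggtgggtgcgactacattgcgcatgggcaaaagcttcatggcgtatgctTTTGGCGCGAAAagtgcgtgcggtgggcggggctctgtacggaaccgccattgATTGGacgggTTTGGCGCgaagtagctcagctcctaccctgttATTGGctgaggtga
Mcm5: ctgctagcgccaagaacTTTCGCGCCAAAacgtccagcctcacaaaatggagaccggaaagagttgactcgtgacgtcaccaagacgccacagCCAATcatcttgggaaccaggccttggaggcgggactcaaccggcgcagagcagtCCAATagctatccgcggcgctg
Mcm3: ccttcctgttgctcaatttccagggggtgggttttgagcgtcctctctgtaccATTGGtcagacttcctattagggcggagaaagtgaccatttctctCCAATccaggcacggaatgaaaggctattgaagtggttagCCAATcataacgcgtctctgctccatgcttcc
Mcm2: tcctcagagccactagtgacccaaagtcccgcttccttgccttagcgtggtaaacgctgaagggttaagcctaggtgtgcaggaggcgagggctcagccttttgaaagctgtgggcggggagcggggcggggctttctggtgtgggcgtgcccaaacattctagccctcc
Mcm6 held 3 E2F-type matches in this stretch and Mcm5 held 2. For Mcm5 the start of the window lies downstream of the annotated gene start, at 75109468. The end of its stretch, with the second CCAAT shown, thus lies within the annotated gene. In Mcm3 the 2 matches lay after the start, from base 20 to 27 and from 39 to 46, so its capitals are CCAAT boxes. Mcm2 had none in its window, and its single CCAAT lay just upstream of the stretch. Mcm7, which like Mcm2 did not pass the test at day 4, held 2 E2F-type matches. A match is a description of the sequence, and binding was not measured.

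SC3-seq, the method used, reads only the 3′ ends of transcripts from 1 ng of RNA, and the authors deposited RPM, reads scaled to a common library total. Total reads, inferred from the smallest steps in each file, ran from 2129399 to 7547669 per library, so that 3 reads equal 0.397 to 1.41 RPM. A gene was tested when it reached 10 RPM in at least 2 libraries. This held for 9561 genes and for 38 of the 39 genes described. Ccne2 failed it, with 0 to 3.337 RPM. Differences are between group means of log2(RPM + 1), tested with limma over all 18 libraries, and a gene is called at an adjusted p under 0.05. The replicates of cultured groups are described as biological; for ESCs, EpiLCs and day 4 PGCLCs nothing says that the cultures were separate, so the spread there may be technical. Germ cell markers, 9 genes including Dppa3 and Prdm1, summed to 311.8 and 358 RPM in ESCs and to 69.0 and 80.9 RPM in EpiLCs. The sums were 1716 and 1565 RPM in day 4 PGCLCs and 1752 to 4492 RPM in cultured groups. From EpiLCs to day 4, 7 of the 9 were called higher, while Dazl and Ddx4 had lower values. After FR10 culture Dppa3, Dazl and Ddx4 were called higher than at day 4 and Tfap2c lower. Prdm1 had 116.9 and 135.5 RPM at day 4 and 70.48 and 69.74 RPM after FR10 culture. Replicate 2 of d4c7 FGF2, E9.5c5 FR10 and E9.5c5 CsA stood apart, with 12788 to 13177 genes above 0 against 13362 to 15104 elsewhere. Their groups also had the largest spread between replicates. The median absolute log2 difference over all genes tested was 0.426 to 0.601 there and 0.193 to 0.29 elsewhere. Results that rest on the spread are therefore also given without these 3 libraries, which leaves those groups with a lone library that is assumed to vary like the other groups. Leaving them out lowers the spread shared by all groups, so calls gained in that fit are not further support. As these are bulk samples, fewer cells in S phase and less RNA per cell cannot be told apart.

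Levels were highest in day 4 PGCLCs. The 39 genes together summed to 9281 and 9137 RPM there, and to between 5433 and 8010 RPM in the other 16 libraries. Day 4 PGCLCs had the highest group mean for 20 of the 39 genes, and EpiLCs had the lowest for 12. All genes tested shared in this shift. Their median log2(RPM + 1) was 5.1 and 5.16 in day 4 PGCLCs and 4.54 to 5.02 in the other 16 libraries. How many of all genes were highest in day 4 PGCLCs was not counted. The heat map of all genes and libraries shows that they did not move as a block.

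**Figure D1:**
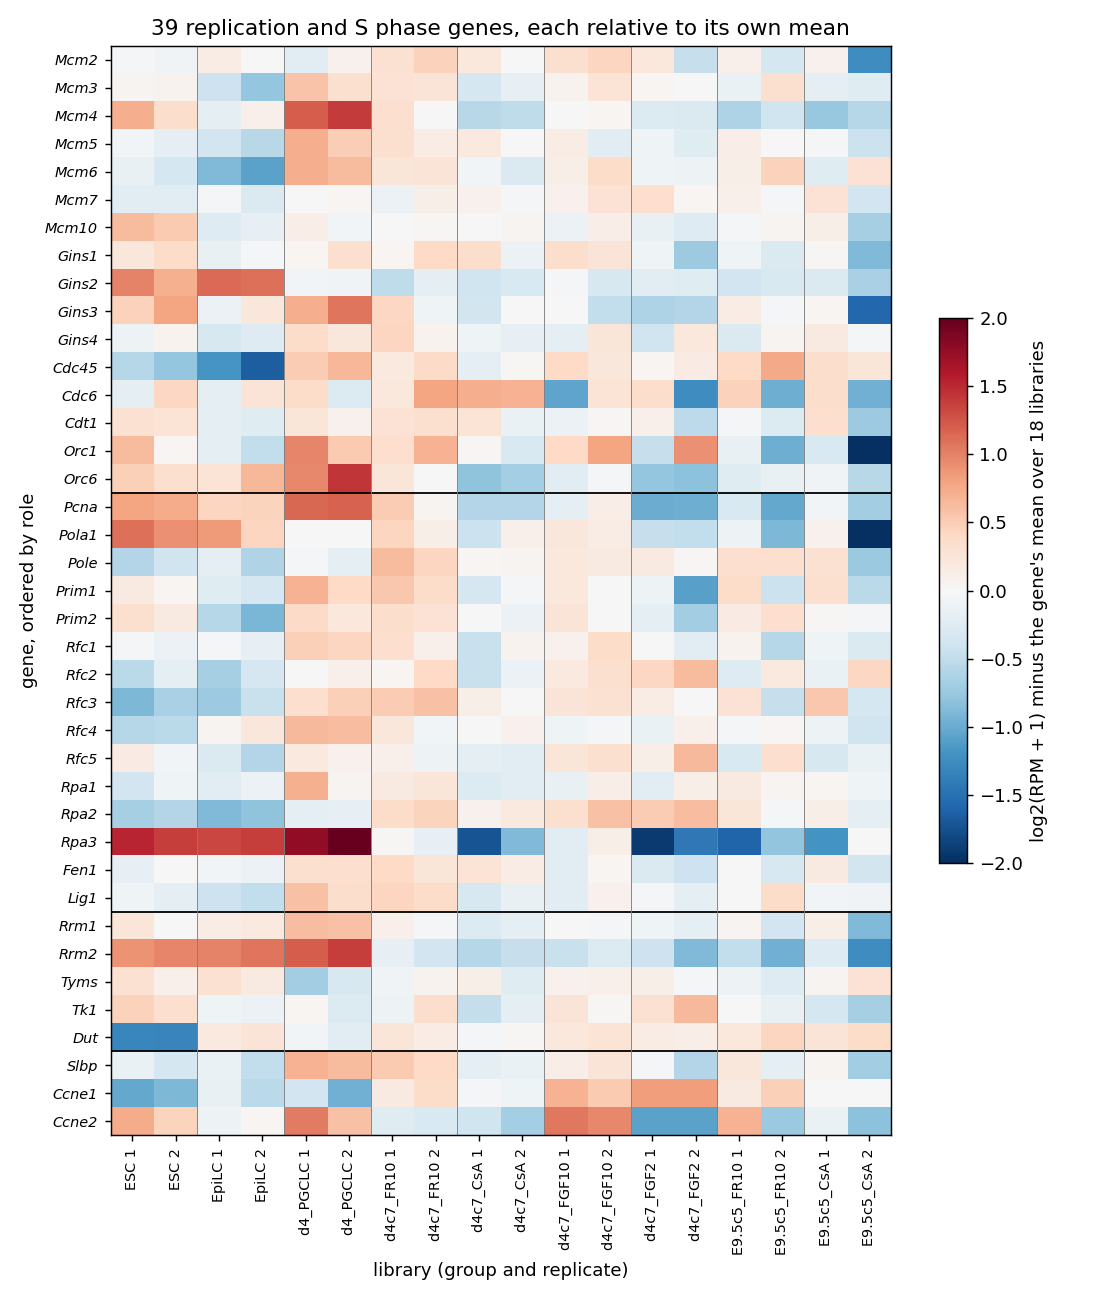
Level of each of the 39 genes (rows, ordered by role, lines between roles) in each of the 18 libraries (columns), as log2(RPM + 1) minus that gene's mean. Red is above and blue below the mean, and colours saturate at 2. Rpa3 and Rrm2 were above their means in all 6 uncultured libraries, and Cdc45 was lowest in EpiLCs.

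From ESCs to EpiLCs, the step that models the exit from naive pluripotency, Prim2, Mcm10, Cdc45, Mcm6, Mcm3 and Mcm4 fell, and the dUTPase gene Dut and Rfc4 rose. Of 38 genes, 2 were higher and 6 lower, while 7.09% of all genes tested were higher and 8.86% lower. On the log2 scale the median difference was -0.18 for the 38 genes and 0.01 for all genes. With median-ratio scaling 2 were higher and 5 lower, against 7.59% and 9.41% of all genes, and Mcm4 lost its call. Among the 16 genes of licensing and the helicase, 5 fell and none rose. Dut, which removes dUTP so that uracil is not built into DNA, had 319.2 and 316.3 RPM in ESCs and 911.5 and 947.5 RPM in EpiLCs. That is 2.92-fold higher (log2 1.55 ± 0.14 SE, limma adjusted p = 9.94e-07), with no overlap between the groups. All later groups also kept Dut above ESCs, at 674.1 RPM or more. Rfc4, a clamp loader subunit, had 125.6 and 127.8 RPM in ESCs and 193.3 and 219 RPM in EpiLCs (log2 0.70 ± 0.17, adjusted p = 0.0101).

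The genes that fell between ESCs and EpiLCs were Prim2, Mcm10, Cdc45, Mcm6, Mcm3 and Mcm4. Prim2, the large primase subunit, went from 70.75 and 64.75 RPM to 38.1 and 29.79 RPM (log2 -0.99 ± 0.23, adjusted p = 0.00668). Cdc45 had 112.4 and 97.12 RPM in ESCs and 73.15 and 53.01 RPM in EpiLCs (log2 -0.74 ± 0.20, adjusted p = 0.0156). Mcm10, which helps Cdc45 to join the helicase, had 217.2 and 200.9 RPM in ESCs, the highest of any group, and 116.8 and 124.6 RPM in EpiLCs (log2 -0.79 ± 0.22, adjusted p = 0.0177). Mcm6, Mcm3 and Mcm4 were lower by 0.59 to 0.73 on the log2 scale. Mcm2, Mcm5 and Mcm7 were at 0.13 ± 0.31, -0.35 ± 0.19 and 0.07 ± 0.20, and none of these passed. The clamp gene Pcna, at 1260 and 1210 RPM in ESCs and 975.5 and 989.7 RPM in EpiLCs, did not pass either (adjusted p = 0.412). These calls rested on few libraries. Without ESC replicate 1 or without EpiLC replicate 2 only 1 gene was called, and 5 were called without ESC replicate 2, against 8.79%, 8.64% and 9.2% of all genes. Without the 3 libraries that stood apart, 12 were called, 3 higher and 9 lower, against 14.4% and 15.1% of all genes.

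From EpiLCs to day 4 PGCLCs, the step in which germ cell fate is induced, Cdc45, 4 of the 6 MCM ring subunits and 6 of 15 genes of polymerases, clamp and single-strand binding rose, while Gins2, Tyms and Dut fell. In all 13 of 38 genes were higher and 3 lower, while 27.5% of all genes tested were higher and 12.1% lower. The median difference was 0.55 for the 38 genes and 0.34 for all genes. Scaling by median ratios brings the median of all genes to 0, and then 8 of the 38 genes were higher and 4 lower, against 17.4% and 18.7% of all genes, with a median of 0.19. The 5 higher calls lost under that scaling were Pcna, Orc6, Rpa2, Rfc3 and Rfc4. The lower call gained was Ccne1, at log2 -0.69 against -0.33 on deposited RPM. The estimates of Mcm7, Mcm10, Gins1, Rrm2 and Pole, none of them called, went from above to below 0. Sorting also changed at this step, from unsorted to mVenus-sorted cells, and cannot be told apart from the change of cell state.

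Cdc45, which joins MCM when origins fire, rose most. It had 73.15 and 53.01 RPM in EpiLCs and 238.1 and 266.8 RPM in day 4 PGCLCs, a 4-fold difference (log2 2.00 ± 0.20, limma adjusted p = 9.77e-07). Both day 4 libraries stood above all ESC and EpiLC libraries. Within the MCM ring, Mcm6 went from 158.7 and 139.7 RPM to 483.7 and 455.5 RPM (log2 1.65 ± 0.19, adjusted p = 6.36e-06). Mcm4 went from 164 and 202 RPM to 434.9 and 499.9 RPM (log2 1.35 ± 0.19, adjusted p = 3.84e-05). Mcm5 went from 180.4 and 158.6 RPM to 389.8 and 330.4 RPM, and Mcm3 from 167.3 and 130.8 RPM to 333.4 and 280.6 RPM. Both were 2.06- to 2.11-fold higher and passed under both scalings. Mcm2, by contrast, had 527.7 and 482.5 RPM in EpiLCs and 411.9 and 507.4 RPM at day 4 (log2 -0.14 ± 0.31), and Mcm7 had 523.7 and 434.5 against 530.7 and 544.9 RPM (log2 0.17 ± 0.20). Neither passed the test. The groups overlapped for Mcm2 and did not overlap for Mcm7.

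GINS, the other partner of the active helicase, was uneven. Gins2 fell from 105 and 101.8 RPM to 45.08 and 44.99 RPM (log2 -1.18 ± 0.23, adjusted p = 0.000778). It stayed at 29.6 to 45.98 RPM in the 12 cultured libraries. Gins1, Gins3 and Gins4 were at 0.27 ± 0.30, 0.84 ± 0.48 and 0.58 ± 0.24 on the log2 scale and did not pass. Gins3 had low values, 7.429 and 9.673 RPM in EpiLCs and 14.09 and 18.15 RPM at day 4. In the GENCODE vM21 annotation Gse1 on the other strand overlaps the last 500 bases of Gins2, and reads of the pair cannot be told apart, since strand use in counting was not stated. The same holds for Mcm7 with Cops6, Rfc4 with Eif4a2, Rfc5 with Wsb2, Fen1 with the antisense Gm10143, and Ccne2 with Ints8. Of the licensing genes, Orc6 rose from 92.77 and 121.1 RPM to 148.9 and 207.4 RPM (log2 0.72 ± 0.23, adjusted p = 0.02), while Orc1, Cdc6 and Cdt1 did not pass, at 1.10 ± 0.55, 0.00 ± 0.58 and 0.39 ± 0.27.

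Of the 15 genes of polymerases, clamp and single-strand binding, 6 rose and none fell between EpiLCs and day 4 PGCLCs. That is 40% higher, against 27.5% of all genes. With median-ratio scaling 2 rose and none fell, 13.3% higher against 17.4%, so the share was then not above that of all genes. Pcna, Rpa2, Rfc3 and Rfc4 lost their calls under that scaling. Prim2 returned from 38.1 and 29.79 RPM to 74.67 and 65.84 RPM (log2 1.04 ± 0.23, adjusted p = 0.00206), close to its ESC values. Lig1, the ligase that seals lagging-strand fragments, went from 72.2 and 68.48 RPM to 145.6 and 123.4 RPM (log2 0.92 ± 0.20, adjusted p = 0.00149). Pcna went from 975.5 and 989.7 RPM to 1609 and 1642 RPM, the highest of all libraries (log2 0.73 ± 0.23, adjusted p = 0.02). The 5 clamp loader genes all had estimates above 0, between 0.49 and 1.00, but only Rfc3 and Rfc4 passed. Rfc1, Rfc2 and Rfc5 were at 0.55 ± 0.24, 0.55 ± 0.25 and 0.58 ± 0.23. RPA genes were at 0.55 ± 0.22 (Rpa1), 0.66 ± 0.17 (Rpa2) and 0.71 ± 0.43 (Rpa3), and of these Rpa2 passed (adjusted p = 0.00649). Slbp, which binds histone mRNA in S phase, rose from 175.6 and 137.7 RPM to 313.7 and 301 RPM (log2 0.98 ± 0.24, adjusted p = 0.00451).

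Among the 5 nucleotide genes, 2 fell from EpiLCs to day 4 PGCLCs and none rose. Of all genes tested 12.1% were lower and 27.5% higher. Tyms, thymidylate synthase, had 162.7 and 149.7 RPM in EpiLCs and 81.24 and 106 RPM at day 4, its lowest values anywhere (log2 -0.74 ± 0.20, adjusted p = 0.00649). Dut fell by 0.37 ± 0.14 (adjusted p = 0.0497) to 766.9 and 674.1 RPM, still above ESCs. Rrm1, Rrm2 and Tk1 did not pass. Without EpiLC replicate 1 fewer of the 38 genes were called, and also fewer of all genes tested. Without the 3 libraries that stood apart more of both were called, from the same estimates.

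**Figure D2:**
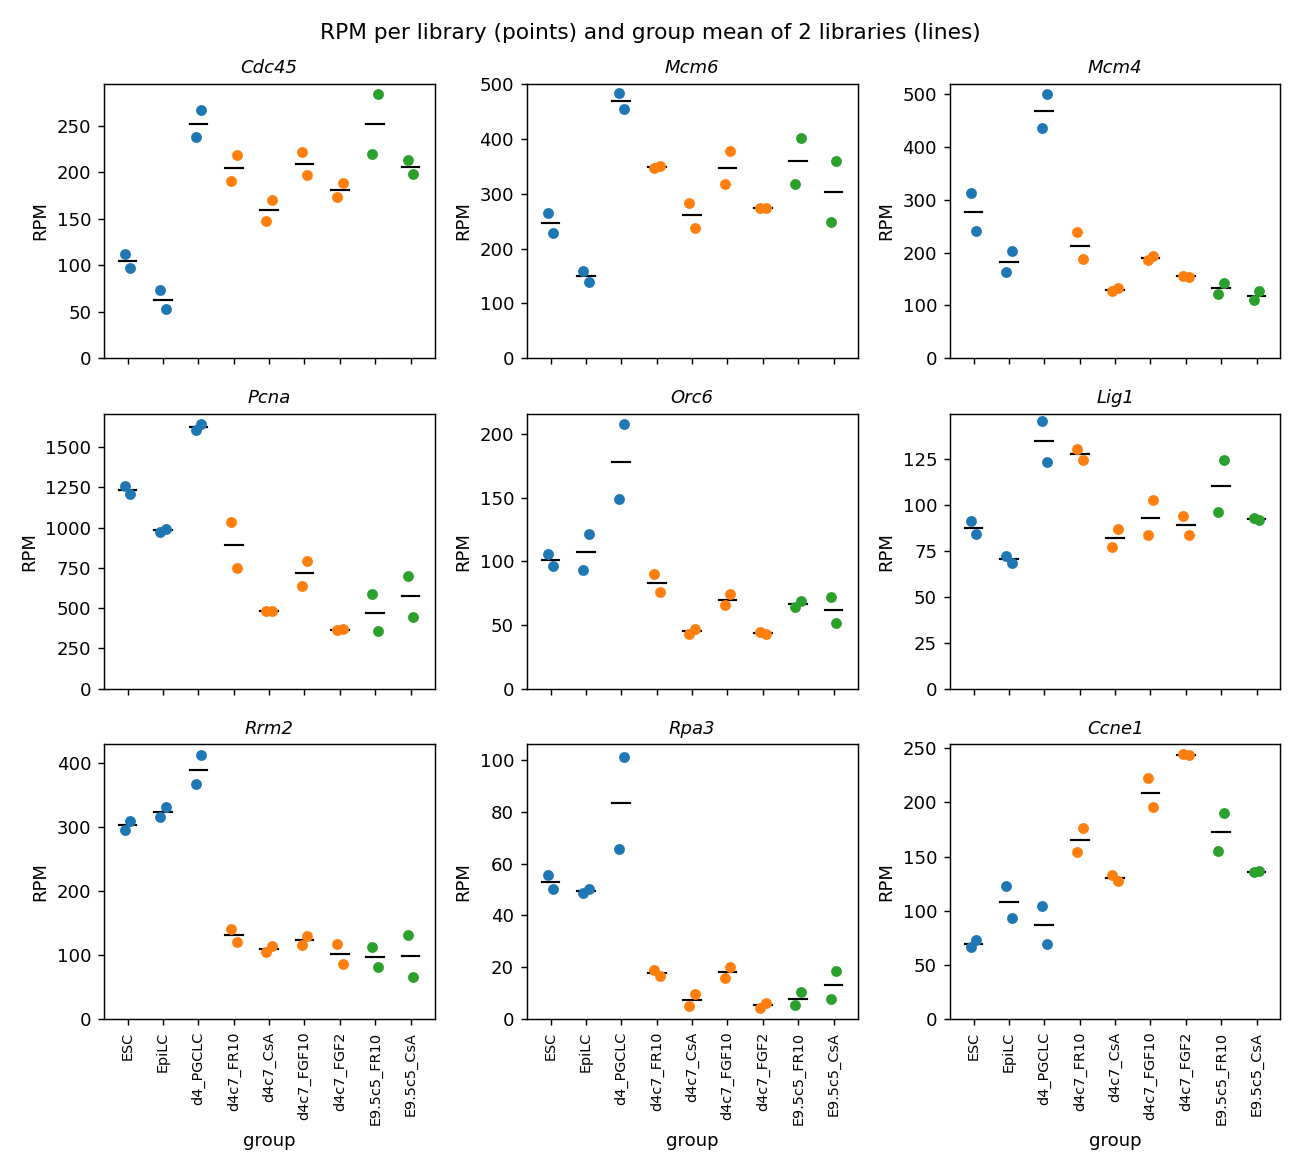
RPM (vertical axes, from 0) of 9 genes in each library (points) by group, with lines at the mean of 2 libraries. Blue points are ESCs, EpiLCs and day 4 PGCLCs, orange points cultured PGCLCs and green points cultured embryonic germ cells. Day 4 PGCLCs are highest for Mcm6, Mcm4, Pcna, Rrm2 and Rpa3, and cultured PGCLCs with FGF2 are highest for Ccne1.

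Set against ESCs, day 4 PGCLCs had 11 genes higher and 2 lower of 38, while 24.3% of all genes tested were higher and 10.2% lower. This comparison and the last share the day 4 libraries. Medians were 0.40 for the 38 genes and 0.34 for all genes, and with median-ratio scaling 5 genes were higher and 5 lower, with a median of 0.04, against 14.5% and 15.7% of all genes. The calls that stood under both scalings were Cdc45, Rfc3, Rfc4, Dut and Slbp higher, and Gins2 and Tyms lower. Cdc45 was 2.4-fold higher than in ESCs (log2 1.26 ± 0.20, limma adjusted p = 0.000124). Rfc4, with 292.1 and 287.5 RPM against 125.6 and 127.8 RPM, was 2.28-fold higher, and Rfc3, with 93.92 and 104.1 RPM against 39.35 and 46.99 RPM, 2.27-fold higher. Mcm6, Mcm4, Mcm5, Orc6, Lig1 and Rpa1 passed on deposited RPM only, by 0.61 to 0.92 on the log2 scale. Without ESC replicate 2 the count was 7, without day 4 replicate 1 it was 8, and without the 3 libraries that stood apart it was 24 (19 higher and 5 lower, against 35.7% and 15.4% of all genes).

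After 7 days of culture with FR10, PGCLCs had lower Rrm2, Rpa3, Mcm4, Orc6, Pcna and Rfc4 and higher Ccne1 and Rpa2 than at day 4. Thus 2 of 38 genes were higher and 6 lower, while 7.01% of all genes tested were higher and 8.22% lower. The median difference, -0.08, was near that of all genes, -0.07. With median-ratio scaling 3 were higher and 5 lower, against 7.92% and 7.09% of all genes. The groups also differ in labelled strain (C57BL/6 at day 4, B6D2F1 after culture), and culture and strain cannot be told apart.

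Rrm2, the regulated subunit of ribonucleotide reductase, fell from 367.7 and 412.4 RPM to 141 and 120.8 RPM, to 0.337 of its former level (log2 -1.57 ± 0.26, limma adjusted p = 0.000677). All 12 cultured libraries lay between 65.98 and 141 RPM and all 6 uncultured ones between 296.2 and 412.4 RPM. Rrm1, the large subunit, had 336.7 and 327.7 RPM at day 4 and 234.3 and 215.1 RPM after culture and did not pass. Rpa3, the smallest RPA subunit, fell from 65.75 and 101.2 RPM to 18.97 and 16.57 RPM (log2 -2.14 ± 0.43, adjusted p = 0.00292). Again the 12 cultured libraries, 4.186 to 20.19 RPM, did not reach the 6 uncultured ones, 48.77 to 101.2 RPM. How many of all genes separated in this way was not counted. Rpa2, the partner of Rpa3, went the other way, from 165.3 and 168 RPM to 243.2 and 258.6 RPM (log2 0.59 ± 0.17, adjusted p = 0.0306). Rpa1 had 259.7 and 163.4 against 179.3 and 187.5 RPM and did not pass. The low Rpa3 values correspond to more reads than the 3 taken as a floor in every library.

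Mcm4 fell from 434.9 and 499.9 RPM to 238.5 and 187.5 RPM (log2 -1.14 ± 0.19, adjusted p = 0.000679). None of the other ring subunits passed, with Mcm2 at 0.45 ± 0.31, Mcm3 at -0.17 ± 0.19, Mcm5 at -0.38 ± 0.19, Mcm6 at -0.42 ± 0.19 and Mcm7 at -0.01 ± 0.20. Mcm4 was thus the ring subunit with the widest range, 3.94-fold between its highest and lowest group means, against 1.33-fold for Mcm7. Orc6 fell from 148.9 and 207.4 RPM to 90.23 and 75.61 RPM (log2 -1.08 ± 0.23, adjusted p = 0.00457), and Pcna from 1609 and 1642 RPM to 1035 and 751.3 RPM (log2 -0.88 ± 0.23, adjusted p = 0.0165). Ccne1, cyclin E1, rose from 104.3 and 69.51 RPM to 154.1 and 176.8 RPM (log2 0.95 ± 0.21, adjusted p = 0.00585). Of GINS and the clamp loader, only Rfc4 passed, at -0.54 ± 0.17 (adjusted p = 0.0432). That call was lost with median-ratio scaling and without any 1 of the 4 libraries compared (adjusted p up to 0.313). The 13 feeder and fibroblast markers summed to 1134 and 1156 RPM at day 4, with 4 at 0 in each library, and to 1020 and 944.9 RPM after culture, with 2 at 0 in each. Of the 9 that were tested, Dcn, Col3a1 and Col1a2 were higher after culture and Sparc was lower. Dcn was at 0 at day 4 and at 76.67 and 69.39 RPM after culture, and Col3a1 at 0.9392 and 0 against 68.93 and 31.76 RPM. Vim, at 428.8 and 409.7 RPM at day 4 against 127 and 152.3 RPM, and Sparc, at 342.4 and 315.9 against 87.9 and 89.07 RPM, made up most of the sum at day 4. Fn1 was the largest part after culture, at 608.3 and 547.9 RPM against 354.1 and 412.4 RPM at day 4. In ESCs the 13 markers summed to 2180 and 2118 RPM with Dcn and Col3a1 at 0, so the sum does not measure feeder cells alone. Lum was at 0 in all 18 libraries and Thy1 in all cultured ones. Their part in the result was not tested. Like the share of all genes called, the count of 8 calls fell without day 4 replicate 2, FR10 replicate 2 or day 4 replicate 1. It rose to 14 without the 3 libraries that stood apart (6 higher and 8 lower, against 13.8% and 17.2% of all genes).

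**Figure D3:**
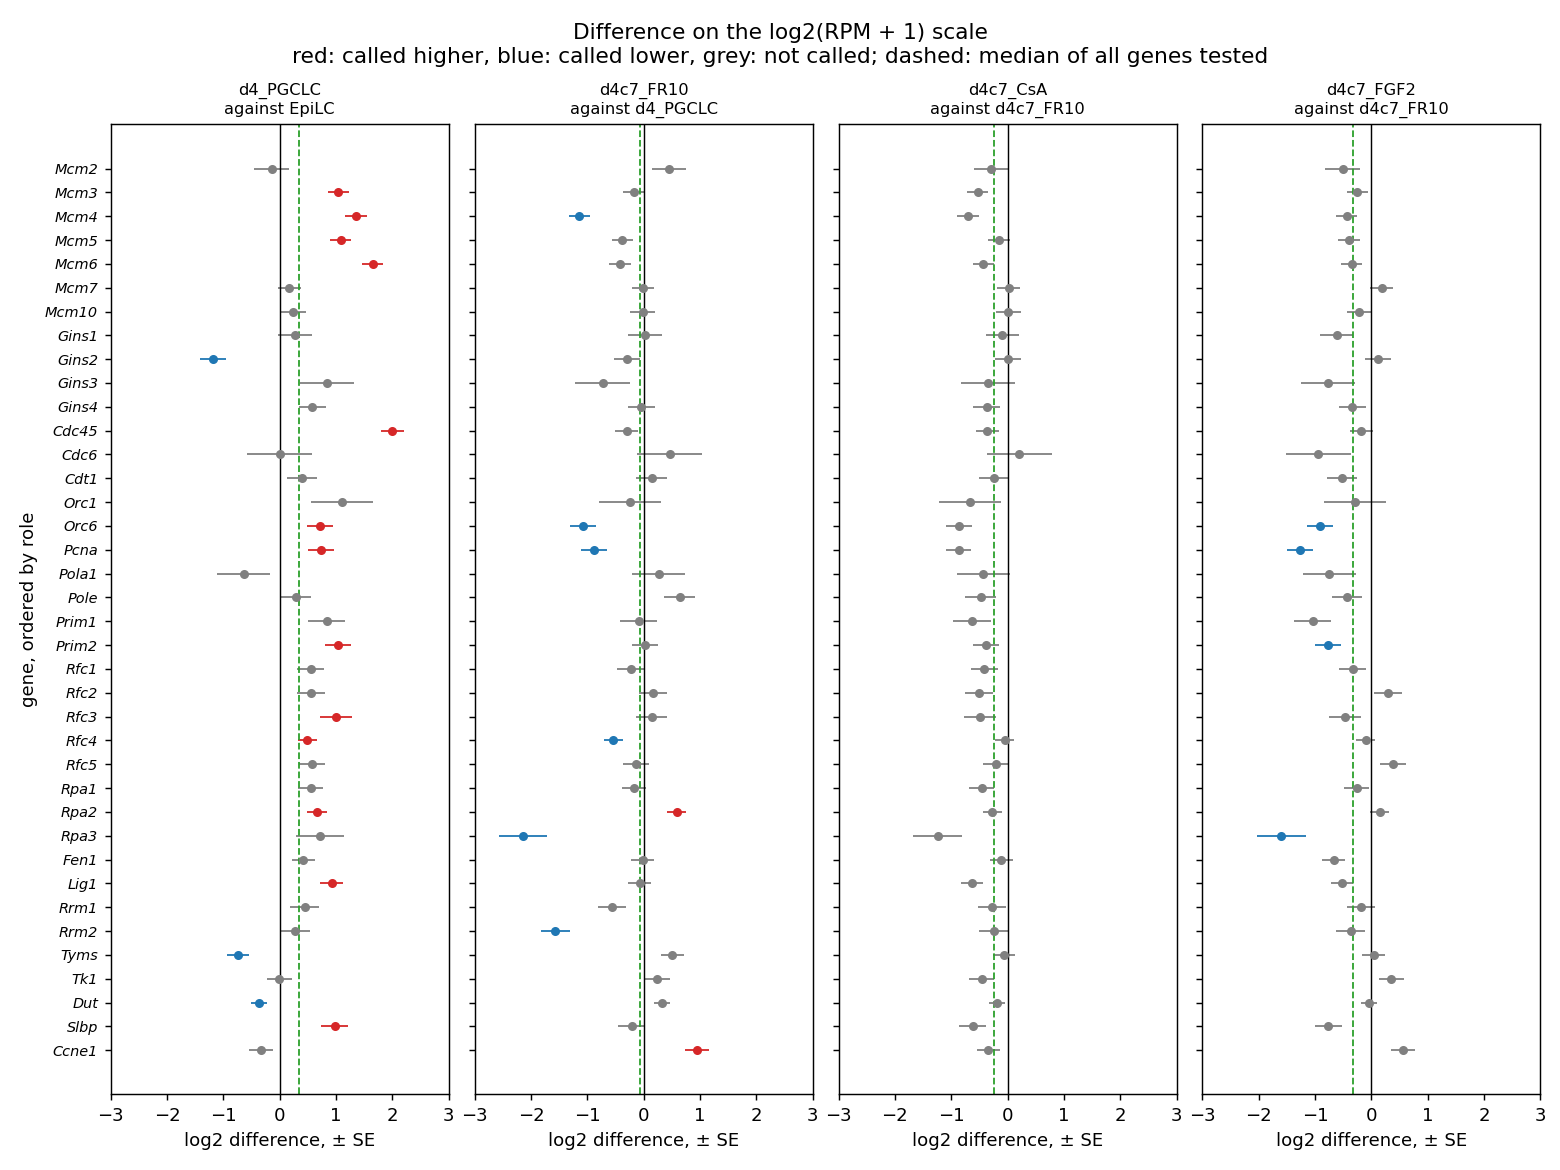
Difference of group means on the log2(RPM + 1) scale (horizontal axes, points with ± SE) for 38 genes, in 4 comparisons. Red points were called higher and blue points lower at an adjusted p under 0.05, and the dashed line is the median of all genes tested. Cdc45 stands furthest right for day 4 PGCLCs against EpiLCs, and with CsA nearly all points lie left of 0 although none was called. With CsA the median of all genes, -0.24, also lies left of 0.

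Cyclosporin A in the PGCLC culture gave estimates below FR10 for 34 of the 38 genes, but none was called with all libraries. Estimates above 0 were found for 4 of the 38 and for 2832 of all 9561 genes, so most of all genes also lay below FR10. Of all genes 0.0209% were higher and 0.0105% lower by limma. An unadjusted p under 0.05 was found for 9 of the 38 genes and for 1317 of all 9561. The median difference was -0.37 for the 38 genes and -0.24 for all genes, and with median-ratio scaling -0.14 and -0.02. That scaling left 11 of the 38 estimates above 0, against 4580 of all 9561. It called none of the 38, against 0.0837% of all genes higher and 0.0105% lower. Pcna had 1035 and 751.3 RPM with FR10 and 481 and 481.6 RPM with CsA (log2 -0.87 ± 0.23, adjusted p = 0.142). Orc6 had 90.23 and 75.61 against 43.12 and 47.14 RPM (log2 -0.86 ± 0.23, adjusted p = 0.151), and Mcm4 238.5 and 187.5 against 127.6 and 132 RPM (log2 -0.70 ± 0.19, adjusted p = 0.151). In each the groups did not overlap, though with 2 libraries per group this is easily met, and it was not counted over all genes. Lig1, at 130.5 and 124.6 against 76.98 and 87.02 RPM, and Rpa3, at 18.97 and 16.57 against 4.92 and 9.669 RPM, were next by p (log2 -0.63 ± 0.20 and -1.24 ± 0.43).

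Without the 3 libraries that stood apart, none of which belongs to either of these groups, the estimates were the same and 8 of the 38 genes were lower with CsA and none higher, against 8.29% and 1.83% of all genes. These were Pcna (adjusted p = 0.00111), Orc6, Mcm4, Slbp, Lig1, Rpa3, Prim1 and Mcm3, with adjusted p-values up to 0.0251. None was among the nucleotide genes, whose 5 estimates lay between -0.46 and -0.06. With the estimates unchanged, these calls came only from the smaller spread of that fit. Feeder and fibroblast markers, Fn1 the largest, summed to 1020 and 944.9 RPM with FR10 and to 905.3 and 682.9 RPM with CsA. At 0 were 2 and 2 of 13 markers with FR10 against 3 and 5 with CsA. Their part in the result was not tested.

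The libraries with label FGF2 had lower Pcna, Rpa3, Orc6 and Prim2 than those with FR10. Thus 4 of 38 genes were lower and none higher, while 7.47% of all genes tested were lower and 1.37% higher. The median difference was -0.36, near the -0.33 of all genes. Pcna had 362.7 and 368.7 RPM with FGF2 against 1035 and 751.3 RPM (log2 -1.27 ± 0.23, limma adjusted p = 0.00942). Orc6 had 44.14 and 43.01 against 90.23 and 75.61 RPM (log2 -0.91 ± 0.23, adjusted p = 0.0285), and Rpa3 4.186 and 6.319 against 18.97 and 16.57 RPM (log2 -1.60 ± 0.43, adjusted p = 0.0339). Prim2 had 49.47 and 34.51 against 72.8 and 69.74 RPM (log2 -0.77 ± 0.23, adjusted p = 0.0475). None of these groups overlapped, which was likewise not counted over all genes. Cyclin E1 lay on the other side, with 244.7 and 243.3 RPM for Ccne1 with FGF2, the highest of all libraries, against 154.1 and 176.8 RPM (log2 0.56 ± 0.21, adjusted p = 0.0961). With median-ratio scaling 1 gene, Pcna, was lower and 1 gene, Ccne1 (log2 0.87), was higher, against 2.71% and 2.98% of all genes. Most or all of these calls were lost when FR10 replicate 1, FR10 replicate 2 or FGF2 replicate 2 was removed. The share of all genes called fell too. The fit without the 3 libraries that stood apart had 4 lower calls, 3 of them shared with the full fit, against 9.59% of all genes. Feeder and fibroblast markers, Fn1 the largest, summed to 616.9 and 280 RPM with FGF2, with 3 and 5 of 13 at 0. They summed to 1020 and 944.9 RPM with FR10, and their part in the result was not tested. CsA and FGF2 were set against the same FR10 libraries, so their values are not independent.

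With label FGF10 no gene was called against FR10, of the 38 or of all 9561 tested (0%). An unadjusted p under 0.05 was found for 477 of all genes and for 1 of the 38. That was Lig1, with 83.43 and 102.5 RPM against 130.5 and 124.6 RPM (log2 -0.46 ± 0.20, limma adjusted p = 0.979). Medians were -0.09 for the 38 genes and -0.08 for all genes. Ccne1 had 222.1 and 195.8 RPM with FGF10 against 154.1 and 176.8 RPM (log2 0.34 ± 0.21). Pcna had 637 and 793.7 RPM, which overlapped the FR10 values.

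In cultured germ cells of E9.5 embryos, CsA against FR10 gave no call among the 38 genes or among all genes (0%). None of the 38 had an unadjusted p under 0.05, against 703 of all 9561 genes. Here the medians were -0.19 for the 38 genes and -0.11 for all genes. Pcna had 585.9 and 358.4 RPM with FR10 and 698.1 and 447.9 RPM with CsA, which overlap. Mcm4 had 122.5 and 142.9 against 110.6 and 126.7 RPM, and Orc6 64.31 and 69.06 against 72.31 and 51.84 RPM. Pole, the leading-strand polymerase, had the smallest p, with 113.3 and 113.5 against 110.6 and 53.35 RPM (log2 -0.56 ± 0.27, limma adjusted p = 0.678). CsA replicate 2 was the lowest library of all 18 for several of the genes, among them Mcm2 at 201.7 RPM, Orc1 at 4.713 RPM and Pola1 at 8.86 RPM. Without CsA replicate 1, which leaves that library alone, 7 genes were called lower, against 6.84% of all genes called, and without CsA replicate 2 none was and the median was 0.04.

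Whether CsA acted differently on the 2 cell sources was tested by the difference of its effects, embryonic minus PGCLC. No gene of the 38 or of all 9561 passed. The difference for Pcna was 1.16 ± 0.33 (log2, limma adjusted p = 0.677), for Rpa3 1.83 ± 0.61 (adjusted p = 0.715) and for Orc6 0.74 ± 0.33 (adjusted p = 0.745). These 3 of the 38 genes had an unadjusted p under 0.05, against 616 of all 9561. Embryonic cells and PGCLCs under FR10 were also set side by side, and no gene of the 38 was called, against 0.0314% of all genes higher and 0.0105% lower. The 5 with an unadjusted p under 0.05 were Pcna (log2 -0.94 ± 0.23, adjusted p = 0.156), Mcm4 (-0.67 ± 0.19), Rpa3, Fen1 and Rfc3. All 5 were lower in the embryonic cells. Of all 9561 genes, 1421 had an unadjusted p under 0.05, so the 5 of 38 do not stand out. The median difference was -0.23, near the -0.20 of all genes. Without E9.5c5 FR10 replicate 1, Pcna alone passed (adjusted p = 0.0146). Strain, reporter and days of culture differ between these groups and cannot be told apart from the cell source.

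**Figure D4:**
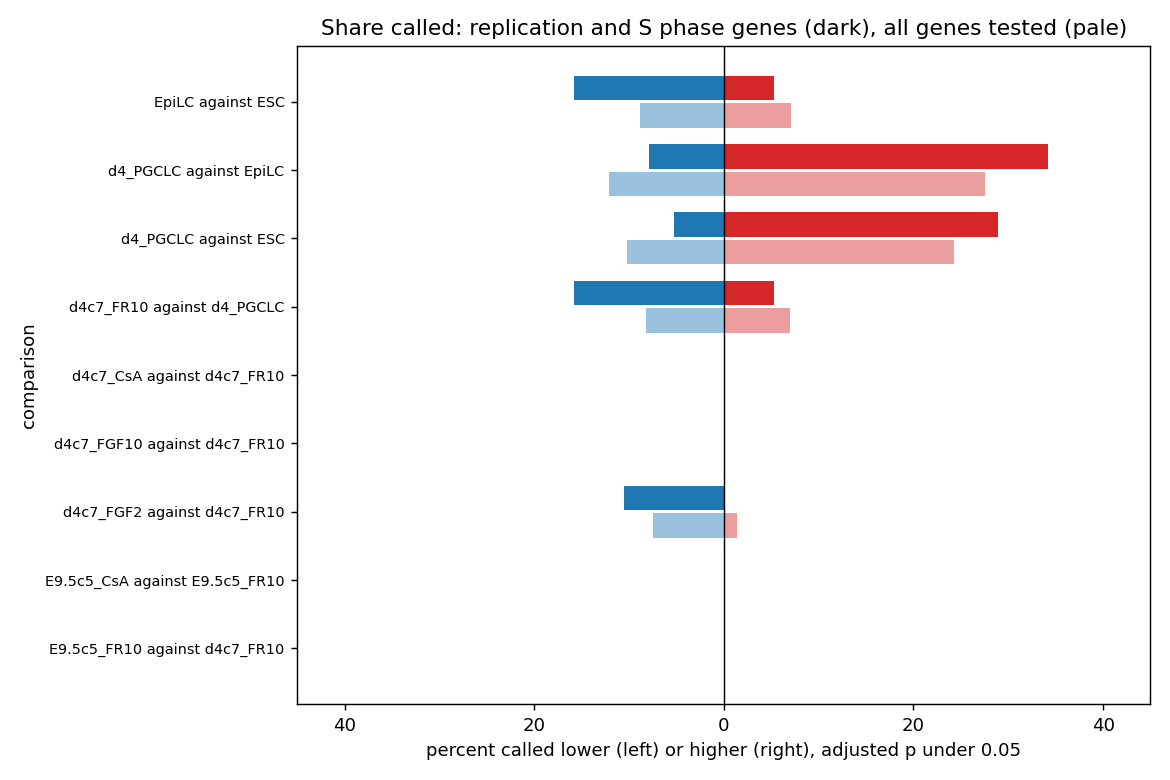
Percent of genes called lower (left, blue) or higher (right, red) at an adjusted p under 0.05 in 9 comparisons, for the 38 replication and S phase genes tested (dark bars) and all 9561 genes tested (pale bars). The dark bars reach 15.8% lower for EpiLCs against ESCs and for FR10 culture against day 4, and 34.2% higher for day 4 PGCLCs against EpiLCs.

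Cyclins E1 and E2, which drive entry into S phase, had separate patterns. Ccne1 lay at 66.64 to 123.2 RPM in the 6 uncultured libraries and at 127.8 to 244.7 RPM in the 12 cultured ones, without overlap on deposited RPM. With median-ratio scaling EpiLC replicate 1 came above the lowest cultured libraries, so the ranges then overlapped. How many of all genes separated in this way was not counted. Labelled strain also differed between these libraries, and culture and strain cannot be told apart. The order of its group means ran from ESCs at the bottom to FGF2 at the top. Ccne2 reached at most 3.337 RPM, with 2.517 and 1.85 RPM in ESCs, 3.287 and 2.124 RPM at day 4 and 0 in both FGF2 libraries, and under the filter no difference was tested.

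Genes of replication outside the 39 were followed as a list of 44. From EpiLCs to day 4 PGCLCs 11 rose and 3 fell, which is 25% and 6.82% against 27.5% and 12.1% of all genes. With median-ratio scaling 5 rose and 4 fell, 11.4% and 9.09% against 17.4% and 18.7%, so neither share was above that of all genes. Topbp1, which brings Cdc45 to origins, rose from 93.34 and 76.61 RPM to 210.4 and 236.7 RPM, and Ticrr, also of origin firing, from 11.24 and 15.09 RPM to 56.82 and 42.29 RPM (log2 1.39 ± 0.19 and 1.83 ± 0.27, limma adjusted p = 2.42e-05 and 6.76e-05). Pold2, a subunit of polymerase delta, fell from 152 and 165.6 RPM to 53.07 and 37.46 RPM (log2 -1.81 ± 0.23, adjusted p = 1.41e-05). After culture with FR10, 2 of the 44 were higher and 3 lower than at day 4, 4.55% and 6.82% against 7.01% and 8.22% of all genes. Samhd1, which breaks down dNTPs, rose from 105.2 and 98.48 RPM to 326.1 and 281.4 RPM (log2 1.56 ± 0.20, adjusted p = 6.35e-05), while Rrm2, which makes their precursors, fell.

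Of 24 regulators of the step from G1 to S, 11 rose and 3 fell from EpiLCs to day 4 PGCLCs, 45.8% and 12.5% against 27.5% and 12.1% of all genes. With median-ratio scaling 7 rose and 3 fell, 29.2% and 12.5% against 17.4% and 18.7%. Ccnd3, cyclin D3, rose from 9.525 and 6.577 RPM to 124.4 and 87.47 RPM, while Ccnd1, cyclin D1, fell from 82.67 and 82.02 RPM to 0.9392 and 3.283 RPM (log2 3.56 ± 0.28 and -4.85 ± 0.58, limma adjusted p = 8.88e-08 and 7.54e-06). Skp2, which marks p27 for destruction, rose from 20.57 and 23.21 RPM to 146.1 and 116 RPM (log2 2.52 ± 0.32, adjusted p = 1.23e-05). Cdkn1a fell from 47.43 and 64.01 RPM in ESCs to 5.143 and 7.351 RPM in EpiLCs (log2 -2.97 ± 0.32, adjusted p = 5.14e-06). It rose again to 40.39 and 24.72 RPM at day 4 (log2 2.19 ± 0.32, adjusted p = 5.34e-05). Beside Ccnd1, the genes that fell from EpiLCs to day 4 were Cdk6 and E2f4. E2f1 fell from ESCs to EpiLCs, from 38.55 and 45.51 RPM to 22.67 and 20.51 RPM (log2 -0.93 ± 0.30, adjusted p = 0.0415). Its rise to 50.25 and 59.86 RPM at day 4 (log2 1.31 ± 0.30, adjusted p = 0.0023) was chosen for naming after its values were seen. Mycn had 279.4 and 247 RPM at day 4, 87.9 and 73.88 RPM after FR10 culture and 26.64 and 40.83 RPM with FGF2, and both falls passed (log2 -1.69 ± 0.23 and -1.26 ± 0.23, adjusted p = 0.000132 and 0.00949).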

How the data were processed

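Expression was measured by SC3-seq, a 3′ RNA-seq method, from 1 ng of RNA in 18 libraries, 2 for each of 9 groups taken from the labels. The authors deposited RPM, and cutadapt 1.3, TopHat 1.4.1, Cufflinks 2.2.0 and build mm10 are named per the submitters' processing notes, without their roles. How reads were counted per gene was not stated. Of 34896 rows per file, 46 without a value were left out. RPM is a share of each library, so a rise of abundant genes lowers the others.

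Depth was inferred from the step of low values (values under 0.001 RPM set aside), at which 99.6% to 99.8% of low values were whole numbers of reads within 0.02. No count model was run. Values of log2(RPM + 1) of 9561 genes with 10 RPM in at least 2 libraries were fitted with limma 3.58.1 in R 4.3.3, with a mean per group, an empirical Bayes trend and 9 residual degrees of freedom (median residual SD 0.37). Benjamini-Hochberg adjustment ran over all 9561 genes in each of 9 comparisons and the test of the difference of CsA effects. A fold change on this scale understates that of genes with low values. Standard errors come from the spread between libraries. The floor of 3 reads covers counting error only, as amplified reads are not independent molecules. The script was tested on simulated data.

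The genes and lists were chosen with earlier results of these data known. Any of the 39 genes could be named, with values for the 10 of smallest p among those called, for MCM, GINS, clamp loader and RPA subunits, Pcna, Ccne1 and Ccne2, and for the 5 of smallest p where fewer were called. Of each other list up to 4 called genes per comparison could be named, by smallest p. E2f1, Cdk6 and E2f4 for day 4 PGCLCs against EpiLCs were named outside that rule. The fits were repeated with a pseudocount of 0.1 or 10 RPM, a filter at 50 RPM or none, median-ratio scaling (factors 0.848 to 1.24), a replicate block, each library left out in turn, and the 3 libraries that stood apart left out together.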

Additional observations from a re-analysis of the deposited data

How the results depend on the processing

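For 49 called single-gene results, 433 of 539 refits kept the call and 106 lost it, mostly where a library was left out. For 29 results not called, 15 of 318 refits gave a call. None of these results changed direction, but among other genes not called, estimates near 0 did so with median-ratio scaling, in 4 to 8 of the 38 genes per comparison other than EpiLC against ESC. Without the 3 libraries that stood apart, 27 genes were called for day 4 PGCLCs against EpiLCs (16 with all), 24 against ESCs (13), 14 for FR10 against day 4 (8) and 8 for CsA against FR10 (0), and the medians were -0.27 for FGF2 (-0.36) and -0.02 for CsA in E9.5 cells (-0.19). With median-ratio scaling the medians were 0.19 and 0.04 for day 4 PGCLCs against EpiLCs and ESCs (0.55 and 0.40), -0.14 for CsA (-0.37), -0.01 for FGF10 (-0.09), -0.05 for FGF2, -0.08 for CsA in E9.5 cells and -0.05 for E9.5 cells against PGCLCs under FR10 (-0.23). FGF2 against FR10 gave 2 calls with that scaling and 2 with no filter (4).

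Same-numbered libraries of different groups were checked for pairing: over 36 group pairs their deviations correlated at -0.102 to 0.34 (median 0.00708), and 7 pairs were over 0.1, so the numbers were not taken to pair samples. The replicate block raised the calls of FGF2 against FR10 to 7 and moved no other count of calls by over 1.5 times.

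With each library left out in turn, counts of called genes ran from 1 to 6 (EpiLC against ESC), 10 to 12 (day 4 against EpiLC), 7 to 11 (day 4 against ESC), 2 to 6 (FR10 against day 4), 0 to 5 (FGF2), 0 to 7 (CsA in E9.5 cells) and 0 to 1 (E9.5 against PGCLC under FR10). The medians ran from -0.26 to -0.18, 0.50 to 0.58, 0.35 to 0.42, -0.19 to -0.02, -0.44 to -0.27, -0.34 to 0.04 and -0.26 to -0.18 in that order. In these fits the share of all genes called changed as well, so the changes in count are not particular to the 38 genes. Depth limits genes with few reads, such as Ccne2 and Gins3.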

Other observations

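Genes with roles in G2 and mitosis were followed as a list of 21. From EpiLCs to day 4 PGCLCs 10 of them rose and none fell, 47.6% higher against 27.5% of all genes. With median-ratio scaling 3 rose and none fell, 14.3% against 17.4% of all genes, so the share was then not above that of all genes. Cenpf, a kinetochore protein, went from 32.76 and 34.43 RPM to 184.6 and 185.8 RPM (log2 2.43 ± 0.25, limma adjusted p = 1.23e-06), and Aurkb, a mitotic kinase, from 77.34 and 58.81 RPM to 150.3 and 166.2 RPM (log2 1.22 ± 0.19, adjusted p = 0.00011). After FR10 culture 2 of the 21 fell and none rose, 9.52% lower against 8.22% of all genes. Kif11, a spindle motor, went from 161.1 and 149.3 RPM to 63.51 and 48.68 RPM (log2 -1.46 ± 0.27, adjusted p = 0.00158). With FGF2 against FR10 5 of the 21 were lower and none higher, 23.8% against 7.47% of all genes, and 1 was lower with median-ratio scaling, 4.76% against 2.71%. Bub1, of the spindle checkpoint, had 134.3 and 85.3 RPM with FGF2 and 228.1 and 210.6 RPM with FR10 (log2 -1.03 ± 0.20, adjusted p = 0.0103). With CsA against FR10 none was called with all libraries, and 6 of the 21 had an unadjusted p under 0.05, against 1317 of all 9561 genes. Without the 3 libraries that stood apart 5 were lower, 23.8% against 8.29% of all genes.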
